A study of Rattus norvegicus with 9 samples.

Results

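The genes described here are the rat genes whose symbol is Zfp followed by a number and nothing else, a naming class of zinc finger proteins. The deposited gene table held 233 such rows with 227 different symbols among its 36267 features. Of these rows, 206 with 202 symbols reached 1 CPM (reads of a gene scaled to a common library total) in at least 3 of the 9 libraries, among 16731 features that did so, and were tested. The filter does not use the groups, but a gene present in 1 group only can pass it through that group. The tested rows nearest to the limit were Zfp9 (ENSRNOG00000006726), with the third highest library at 1.03 CPM, and Zfp951 at 1.19 CPM. The untested rows nearest to it were Zfp169 at 0.907 and Zfp13 at 0.898 CPM. The other untested rows were lower, and Zfp352, Zfp353 and Zfp494 had no read in any library.

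Most proteins with this name carry tandem C2H2 zinc fingers, short loops held by a zinc ion that read DNA bases one after another. Many also have a KRAB domain, through which they bring the corepressor Trim28 and histone-modifying enzymes to DNA, often to silence transposons. Others under the same name work outside transcription, in messenger RNA decay, ribosome quality control, RNA splicing or protein ubiquitination, so the label of transcription factors holds for a large share of the class but not for every gene in it.

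The study sequenced RNA of whole kidneys from 9 rats, 3 in each of 3 groups, and asked how icariin, a plant flavonoid glycoside, alters contrast-induced acute kidney injury (CIAKI). Control rats had no treatment, per the labels. CIAKI rats were given furosemide, a loop diuretic, by stomach tube at 200 mg/kg, were dehydrated for 6 h, and then received the iodinated contrast agent iopromide (370 mg I/mL) at 15 mL/kg into a tail vein. Rats of the third group, called icariin here, received icariin by stomach tube at 100 mg/kg once a day on 3 days before the same furosemide, dehydration and iopromide. The labels give no group with icariin alone and no vehicle for the controls, so the CIAKI comparison holds the diuretic, the dehydration and the contrast agent together. Strain, sex, age and the time from contrast to kidney removal are not stated in the labels.

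Libraries held 64380578 to 90398405 reads, so 1 CPM stood for 64.4 to 90.4 reads. Nephron markers were present in each library: 5 proximal tubule markers summed to 16630 to 20200 CPM in control, 6906 to 9630 in CIAKI and 16270 to 17770 in icariin kidneys. The 4 macrophage markers summed to 68.3 to 77.3 CPM in control, 30.0 to 39.4 in CIAKI and 53.4 to 72.4 in icariin kidneys, with Cd163 the other way at 0.144 to 0.529, 0.901 to 2.45 and 0.310 to 0.892. Erythroid markers summed to 188 to 1089, 1700 to 2045 and 156 to 1116 CPM in the same order, endothelial markers to 213.6 to 248.8, 144.1 to 162.4 and 204.4 to 254.6, and podocyte markers to 199.6 to 218.8, 103.6 to 129.9 and 116.9 to 165.7. Not every marker followed its sum. Emcn was at 44.2 to 45.4 CPM in control and 43.8 to 46.3 in CIAKI kidneys. Kdr and Cdh5 thus carried the endothelial difference. Cubn of the proximal tubule overlapped as well, at 1512 to 2083 CPM in control and 1503 to 1768 in CIAKI. So did the macrophage marker Cd68, at 3.46 to 4.40 CPM in control and 3.20 to 7.01 in CIAKI. Aqp2 of principal cells was higher in CIAKI than in control, at 189 to 219 CPM in control, 272 to 457 in CIAKI and 388 to 573 in icariin kidneys. Slc12a3 of the distal tubule and Atp6v1b1 of intercalated cells were lower in CIAKI than in control. The 3 adipocyte markers summed to 12.5 to 53.2, 8.44 to 21.7 and 15.9 to 22.1 CPM in the same order of groups, and control rat 1 had the highest Adipoq, Fabp4 and Plin1. The adrenal cortex markers found stayed below 1.7 CPM. These are bulk samples, in which fewer cells of a type and less RNA per cell cannot be told apart, and the part of cell composition in the changes below was not tested. All 233 Zfp rows, tested or not, together took 4713 ± 50.7 CPM (SD, n = 3) in control, 4750 ± 87.9 in CIAKI and 4667 ± 136 in icariin kidneys. This total differed between groups by no more than the spread within them. Single tested genes averaged 0.849 to 372 CPM with a median of 11.9, against a median of 15.9 over all features tested.

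Promoters are shown for 5 genes: the genes for 2 ribosome-linked proteins that rose in CIAKI (Zfp593 and Zfp598), 2 genes that fell (Zfp523 and Zfp503), and 1 gene that rose and holds part of the motif of a transcription factor within the class (Zfp180). Each sequence comes from RefSeq on the GRCr8 build, runs 5′ to 3′ along the gene's strand, and spans 250 bases before to 50 bases after the first listed start. The windows are chr5:151748675-151748974 on the minus strand for Zfp593, chr10:14198574-14198873 on the plus strand for Zfp598, chr20:6245078-6245377 on the plus strand for Zfp523, chr15:2362200-2362499 on the plus strand for Zfp503 and chr1:88780092-88780391 on the plus strand for Zfp180. Capitals mark a match to 1 of 8 motifs searched on both strands: GGGCGG (GC box), CCGGAAG (ETS), CCAAT (the CCAAT box), CACGTG (E-box), TGACGTCA (cAMP element), TGANTCA (AP-1), TATAAA (the TATA box), and the core of SBS, the site that human ZNF143 binds. None of these motifs contains another. The core of SBS was searched as a fixed string of letters, so sites spelled otherwise are not marked.
Zfp593: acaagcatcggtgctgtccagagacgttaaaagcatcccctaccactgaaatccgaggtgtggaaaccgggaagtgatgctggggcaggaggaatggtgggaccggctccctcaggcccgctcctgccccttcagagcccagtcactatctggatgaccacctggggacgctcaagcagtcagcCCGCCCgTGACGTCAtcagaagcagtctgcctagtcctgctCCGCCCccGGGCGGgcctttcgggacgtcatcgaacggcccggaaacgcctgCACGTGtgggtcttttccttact
Zfp598: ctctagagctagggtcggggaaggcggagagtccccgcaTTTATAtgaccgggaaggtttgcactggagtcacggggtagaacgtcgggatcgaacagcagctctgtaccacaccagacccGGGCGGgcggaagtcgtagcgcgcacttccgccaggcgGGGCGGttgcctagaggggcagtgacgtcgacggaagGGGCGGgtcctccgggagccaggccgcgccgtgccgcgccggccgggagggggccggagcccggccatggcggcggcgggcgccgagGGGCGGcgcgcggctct
Zfp523: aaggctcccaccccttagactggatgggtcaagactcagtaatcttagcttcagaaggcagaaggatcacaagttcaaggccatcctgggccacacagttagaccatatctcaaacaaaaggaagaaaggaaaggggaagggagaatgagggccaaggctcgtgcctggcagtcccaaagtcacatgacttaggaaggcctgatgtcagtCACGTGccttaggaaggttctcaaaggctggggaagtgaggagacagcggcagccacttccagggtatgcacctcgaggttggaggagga
Zfp503: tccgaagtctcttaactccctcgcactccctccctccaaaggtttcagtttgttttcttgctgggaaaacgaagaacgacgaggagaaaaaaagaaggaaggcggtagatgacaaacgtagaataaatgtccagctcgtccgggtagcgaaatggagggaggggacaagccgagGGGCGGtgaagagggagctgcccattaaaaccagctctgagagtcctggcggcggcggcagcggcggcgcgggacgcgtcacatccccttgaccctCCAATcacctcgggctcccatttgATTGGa
Zfp180: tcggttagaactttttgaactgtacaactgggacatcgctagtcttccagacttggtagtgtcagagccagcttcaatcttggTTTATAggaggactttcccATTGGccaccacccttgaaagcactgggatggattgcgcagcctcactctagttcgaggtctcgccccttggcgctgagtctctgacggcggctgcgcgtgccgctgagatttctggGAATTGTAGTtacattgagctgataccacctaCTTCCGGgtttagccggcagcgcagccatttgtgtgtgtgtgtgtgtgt
The Zfp593 window held a cAMP element, an E-box and 3 GC boxes, and that of Zfp598 held 4 GC boxes and a match to TATAAA. The Zfp523 window held an E-box alone, that of Zfp503 a GC box and 2 CCAAT boxes, and that of Zfp180 the ZNF143 core with a match each to ETS, CCAAT and TATAAA. A match is a string of letters and not a measured binding site.

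A promoter was listed for 162 of the 198 symbols that had a single tested row. GGGCGG occurred in 50% of these 162 promoters and in 34.9% of the promoters of all 27457 genes listed. CCGGAAG occurred in 19.8% against 9.22%, CCAAT in 43.2% against 37.7%, CACGTG in 8.02% against 6.65% and TGACGTCA in 3.09% against 1.91%. TATAAA and TGANTCA were less frequent than in the whole list, at 7.41% against 14.3% and 5.56% against 7.33%. The median GC content was 58.7% in the Zfp promoters and 52.3% in all. In the spelling searched, the ZNF143 core was found in 4 of 162 promoters (2.47%, against 0.313% of all), those of Zfp1, Zfp180, Zfp458 and Zfp692. Promoters with another spelling of the site were not counted. Zfp180, named here for this motif after its values were seen, rose in CIAKI (0.40 ± 0.09 SE, adjusted p = 0.00557, as a difference on the log2(CPM + 1) scale with its standard error, SE, from 3 rats a group), while Zfp1, Zfp458 and Zfp692 did not pass the test. Among genes called in CIAKI with a listed promoter, CCAAT occurred in 10 of 23 that rose and 11 of 18 that fell, and GGGCGG in 14 of 23 and 10 of 18. No test was made of these shares.

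A part of the Zfp genes differed between CIAKI and control kidneys, in both directions and mostly by little. In CIAKI against control kidneys 26 of the 206 tested genes rose and 32 fell (limma, adjusted p below 0.05 over all features). That is 28.2% of the genes, against 41.3% of all features tested, of which 20.8% rose and 20.5% fell. Zfp593, which acts in ribosome assembly, was the gene with the largest rise, and Zfp93 the gene with the largest fall. On the log2(CPM + 1) scale, 37 of the 58 called genes changed by less than 1.5-fold, none rose by 2-fold or more, and 3 fell by 2-fold or more (Zfp93, Zfp950 and Zfp523). Over all features, 3.35% rose and 6.53% fell by that much on this scale. It understates changes of low genes: by the ratio of mean CPM, Zfp593 rose 2.13-fold, and 6 called genes were at 0.5 of control or less, those 3 with Zfp580, Zfp423 and a row of Zfp9. That Zfp9 row (ENSRNOG00000006726) reached 1 CPM in no CIAKI library and passed the filter mainly through the controls, so nothing is read from its call.

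The median log2 fold change over the 206 genes was -0.03, beside 0.00 over all features. Risen genes had log2 fold changes of 0.22 to 0.92 with a median of 0.46, and fallen genes of -1.37 to -0.26 with a median of -0.54. The 148 genes not called differed by at most 0.60 on this scale, with a median size of 0.15. In 44 genes the 3 CIAKI values all lay above the 3 control values and in 58 genes all lay below, which is 21.4% and 28.2% of the genes, against 26.9% and 26.5% of all features. The split depended on the scaling. With upper-quartile scaling 20 genes rose and 49 fell, beside 26 and 32 with CPM as deposited. Without control rat 1 the count of risen genes was 17, and without control rat 2 or 3 the count of fallen genes was 21 or 20.

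**Figure D1:**
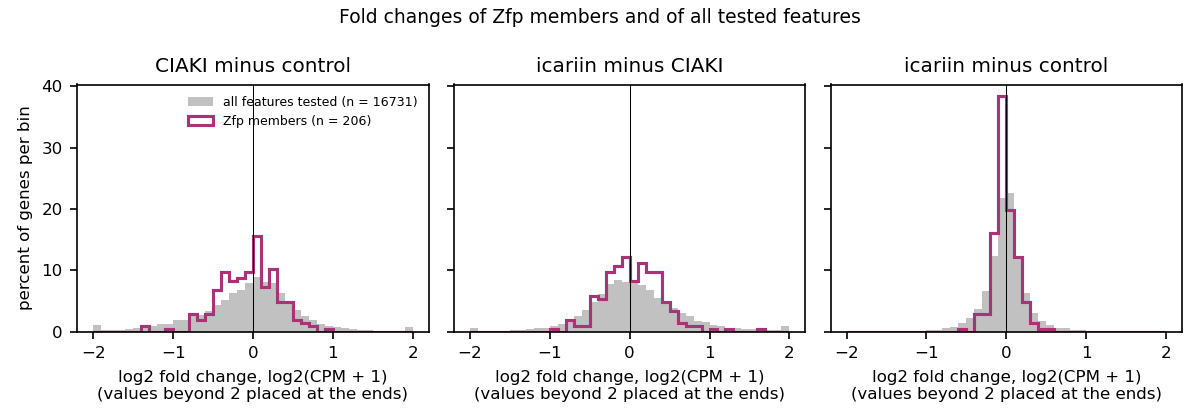
Histograms of log2 fold changes on log2(CPM + 1) in bins of 0.1, as the percent of genes in each bin, for the 206 tested Zfp genes (outline) and all 16731 tested features (grey) in 3 comparisons, with values beyond 2 placed at the ends. The Zfp outline lies within about 1 log2 unit in CIAKI against control except for Zfp93, Zfp950 and Zfp523, and is narrowest in icariin against control.

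The share of genes called was higher in genes with more reads, in the Zfp class as in the whole table. In CIAKI against control the test called 7 of 44 Zfp genes with a mean under 5 CPM (15.9%, against 30.6% of all features at that level). It called 25 of 93 at 5 to 20 CPM (26.9%, against 35.9%), 15 of 46 at 20 to 50 CPM (32.6%, against 46.1%) and 11 of 23 at 50 CPM or more (47.8%, against 55.2%). The share in the Zfp class was thus the lower of the pair in each of the 4 bands. The spread between rats was also smaller in the class: the median coefficient of variation was 7.71% in control and 11.9% in CIAKI kidneys, against 9.48% and 14.8% over all features. In icariin against CIAKI the shares in the 4 bands were 11.4%, 23.7%, 41.3% and 43.5%, against 26.6%, 34.2%, 45.2% and 54.8% of all features.

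**Figure D2:**
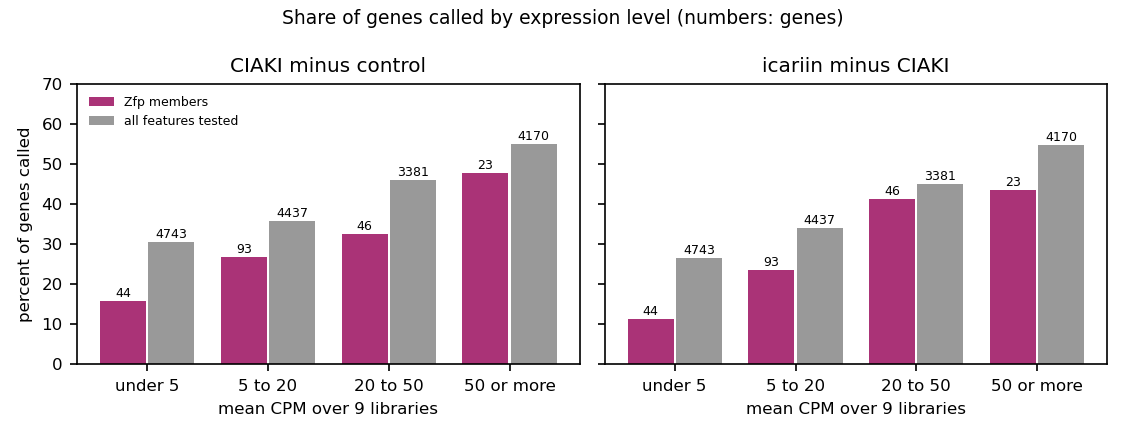
Percent of genes called at an adjusted p below 0.05 (vertical axis) in 4 bands of mean CPM over 9 libraries (horizontal axis), for Zfp genes and all features tested, in CIAKI against control (left) and icariin against CIAKI (right), with the number of genes above each bar. The Zfp bar is the shorter of each pair in all 4 bands on both sides.

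Rats given icariin before the contrast procedure differed from CIAKI rats in about as many Zfp genes. In icariin against CIAKI kidneys 25 genes were higher and 31 lower, which is 27.2% of the class against 39.4% of all features tested (19.2% higher and 20.2% lower). On the log2(CPM + 1) scale Zfp93 and Zfp523 were higher by 2-fold or more and no gene was lower by that much, against 5.39% and 3.04% of all features, and 41 of the 56 called genes differed by less than 1.5-fold. By the ratio of mean CPM, Zfp473 was also higher by over 2-fold (a ratio of 2.10) and Zfp593 was lower by over 2-fold (a ratio of 0.443). Upper-quartile scaling gave 36 higher and 25 lower. Without icariin rat 1 or rat 2 the count of higher genes was 16 or 15. The groups did not overlap in 52 genes with icariin above and 45 with icariin below (25.2% and 21.8%, against 24.9% and 25.9% of all features). This comparison and that of CIAKI with control share the 3 CIAKI libraries, so a CIAKI value that is off moves both, and the 2 are given side by side below.

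No Zfp gene was called between icariin and control kidneys. In icariin against control kidneys limma called 0 of 206 Zfp genes, against 0.628% of all features tested. At an unadjusted p under 0.05, 2 genes were higher and 3 lower, which is 2.43% of the class against 10.2% of all features (4.73% higher and 5.45% lower). Run on recovered reads, edgeR's quasi-likelihood test also called 0, and DESeq2 called 1 lower gene. The median log2 fold change was -0.03, and the groups did not overlap in 10 genes with icariin above and 18 with icariin below (4.85% and 8.74%, against 9.12% and 10.2% of all features). A gene that missed the threshold is not thereby shown to be equal in the 2 groups.

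The 5 genes with an unadjusted p under 0.05 in icariin against control are named here after their values were seen, and their share is below that of all features. Zfp462, a vertebrate chromatin-associated zinc finger protein, measured 57.7, 60.3 and 65.0 CPM in control, 53.9, 45 and 47.7 in CIAKI and 47.1, 51.6 and 44.9 in icariin kidneys. Icariin and CIAKI values overlapped and both groups lay below the controls, with a log2 difference from control of -0.34 ± 0.09 SE, adjusted p = 0.167 for icariin and -0.31 ± 0.09 SE, adjusted p = 0.0197 for CIAKI. The CIAKI call was lost without control rat 3, CIAKI rat 2 or CIAKI rat 3 (adjusted p up to 0.0749). Zfp521 and Zfp507 were lower in icariin than in control kidneys (-0.37 and -0.22 on the log2 scale, adjusted p = 0.345 and 0.355), and Zfp37 and Zfp467 were higher (0.45 and 0.36, adjusted p = 0.25 and 0.469). None of these 5 differences between icariin and control passed the test. Zfp467, described as a promoter of fat cell over bone cell formation, was at 30.2, 37.5 and 26.9 CPM in control, 31.4, 23.1 and 30.1 in CIAKI and 45.2, 40.8 and 35.6 in icariin kidneys. Its icariin values lay above all CIAKI values (0.51 ± 0.15 SE, adjusted p = 0.0269), a call lost without CIAKI rat 2 or without icariin rat 1 or 2 (adjusted p = 0.071 to 0.0897), while icariin and control overlapped.

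Zfp598 and Zfp593, which act on ribosomes, both rose in CIAKI. Zfp598 (ENSRNOG00000012434), a ubiquitin ligase that senses collided ribosomes and starts their rescue, measured 40.6, 42.3 and 43.8 CPM in control, 77.3, 72.5 and 60.8 in CIAKI and 41.2, 44.3 and 36.4 in icariin kidneys. The 3 CIAKI values lay above the other 6, which overlapped. The log2 fold change was 0.71 ± 0.10 SE, adjusted p = 0.000881 in CIAKI against control, and -0.77 ± 0.10 SE, adjusted p = 0.000692 in icariin against CIAKI. Zfp593 (ENSRNOG00000016392), needed for maturation of the large ribosomal subunit, measured 4.37, 5.15 and 4.64 CPM in control, 11.6, 11.5 and 7.08 in CIAKI and 5.27, 3.79 and 4.29 in icariin kidneys. CIAKI rat 3 was nearer to the controls than CIAKI rats 1 and 2 but above each of them. Its log2 fold change was 0.92 ± 0.19 SE, adjusted p = 0.00524, and -1.0 ± 0.19 SE, adjusted p = 0.00383 in icariin against CIAKI.

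Zfp326 and Zfp346, which act on RNA, fell in CIAKI. Zfp326 (ENSRNOG00000047761), a subunit of the DBIRD complex that couples transcript elongation to splicing, was at 23.1, 24.6 and 26.0 CPM in control, 13.6, 14.7 and 17.3 in CIAKI and 21.7, 22.5 and 22.8 in icariin kidneys. Each CIAKI value lay below each control and icariin value, with log2 differences of -0.66 ± 0.10 SE, adjusted p = 0.00115 against control and, in icariin against CIAKI, 0.53 ± 0.10 SE, adjusted p = 0.00359. Zfp346, which binds double-stranded RNA, measured 29.1, 24.9 and 29.4 CPM in control, 16.9, 19.0 and 20.6 in CIAKI and 26.9, 25 and 26.9 in icariin kidneys, again with CIAKI below both other groups (-0.54 ± 0.10 SE, adjusted p = 0.0031, and 0.46 ± 0.10 SE, adjusted p = 0.00695 in icariin against CIAKI). Zfp473, which binds the U7 particle in histone transcript processing, averaged 3.24 ± 0.121, 1.85 ± 0.670 and 3.88 ± 1.34 CPM (SD, n = 3) in control, CIAKI and icariin kidneys. It was higher in icariin than in CIAKI kidneys (0.77 ± 0.22 SE, adjusted p = 0.0227), a call lost without CIAKI rat 1, CIAKI rat 2 or icariin rat 1 (adjusted p = 0.0666 to 0.0726), and missed the threshold in CIAKI against control (-0.60, adjusted p = 0.0573).

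Zfp36 (ENSRNOG00000058388) encodes tristetraprolin, a CCCH rather than C2H2 protein that binds AU-rich messenger RNAs and recruits the CCR4-NOT complex, which shortens their poly(A) tails. It measured 126, 94.6 and 101 CPM in control, 78.3, 124 and 118 in CIAKI and 93.3, 123 and 113 in icariin kidneys, and all 3 groups overlapped (log2 fold change -0.02 ± 0.19 SE, adjusted p = 0.94 in CIAKI, and 0.06 ± 0.19 with adjusted p = 0.835 in icariin against CIAKI). Its partners and paralogs were read from a list of 19 genes, 18 of them tested. In CIAKI 6 rose (33.3%, against 20.8% of all features) and 1 fell (5.56%, against 20.5%). In icariin against CIAKI 0 were higher (against 19.2% of all features) and 7 lower (38.9%, against 20.2%). In both comparisons 38.9% of them were called, close to the 41.3% and 39.4% of all features. Their median log2 fold changes were 0.12 and -0.17, beside 0.00 and 0.02 over all features. Their median level was 46.6 CPM, and at 20 to 50 CPM 46.1% and 45.2% of all features were called. Of the 3381 features at that level, 961 rose and 596 fell in CIAKI, and 580 were higher and 947 lower in icariin against CIAKI. The list as a whole was not tested. Cnot9, a subunit of that complex, was at 30.2, 31.7 and 29.3 CPM in control, 40.9, 38.9 and 38.3 in CIAKI and 30.0, 29.5 and 27.8 in icariin kidneys (0.36 ± 0.07 SE, adjusted p = 0.00355 in CIAKI, and -0.42 ± 0.07 SE, adjusted p = 0.00184 in icariin against CIAKI). Pan3 of the PAN2-PAN3 deadenylase rose by 0.36 ± 0.09 (adjusted p = 0.00885), and Dcp1a of the decapping complex by 0.42 ± 0.11 (adjusted p = 0.0134), both on the log2 scale. In icariin against CIAKI their log2 differences were -0.40 ± 0.09 (adjusted p = 0.00611) and -0.55 ± 0.11 (adjusted p = 0.0041).

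Zfp91, Zfp451 and Zfp207 rose in CIAKI. Zfp91 (ENSRNOG00000012524), a ubiquitin ligase linked to noncanonical NF-kappaB signalling and a substrate of cereblon-binding drugs, had 1 of the 3 highest mean CPM values of the class, not scaled for length, at 159, 159 and 159 CPM in control, 215, 189 and 202 in CIAKI and 159, 159 and 153 in icariin kidneys. Its CIAKI values stood clear of both other groups, which overlapped (0.34 ± 0.06 SE, adjusted p = 0.0027, and -0.36 ± 0.06 SE, adjusted p = 0.00228 in icariin against CIAKI). Zfp451, a SUMO ligase, rose by 0.36 ± 0.09 (adjusted p = 0.0124), which missed the threshold without control rat 1 (adjusted p = 0.0519). Zfp207, the Bub3-binding protein BuGZ of the mitotic spindle, rose from 72.2, 77.0 and 80.7 CPM in control to 104, 94.2 and 90.4 in CIAKI kidneys and was at 75.2, 81.4 and 70.3 in icariin kidneys. CIAKI values exceeded all others (0.32 ± 0.08 SE, adjusted p = 0.0119, and -0.34 ± 0.08 SE, adjusted p = 0.00989 in icariin against CIAKI). Zfp746, the Parkin substrate PARIS, missed the threshold in CIAKI (0.31, adjusted p = 0.0513) and was called lower in icariin than in CIAKI kidneys (-0.33, adjusted p = 0.0422). That call was lost when any library but CIAKI rat 3 or icariin rat 1 was left out (adjusted p up to 0.118).

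A pair of paralogous activators moved in opposite directions. Zfp143 (ENSRNOG00000010087) and Zfp523 (ENSRNOG00000000501, the rat counterpart of human ZNF76) bind the same type of site at promoters of small nuclear RNA and messenger RNA genes. Zfp143 was at 14.8, 15.3 and 14.1 CPM in control, 21.5, 19.9 and 21.0 in CIAKI and 14.7, 15.4 and 15.5 in icariin kidneys, so that CIAKI lay above both other groups (0.47 ± 0.08 SE, adjusted p = 0.00248, and -0.43 ± 0.08 SE, adjusted p = 0.0041 in icariin against CIAKI). Zfp523 was at 28.5, 27.1 and 25.4 CPM in control, 11.9, 13.6 and 12.2 in CIAKI and 25.9, 28.2 and 26.6 in icariin kidneys, so that CIAKI lay far below both (-1.04 ± 0.09 SE, adjusted p = 7.22e-05, and 1.04 ± 0.09 SE, adjusted p = 9.28e-05 in icariin against CIAKI). In icariin against control Zfp523 differed by 0.00 ± 0.09 on the log2 scale and Zfp143 by 0.04 ± 0.08. Both adjusted p-values of Zfp523 were the smallest in the class.

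Zfp281, a GC-rich-site binding factor studied in pluripotent cells, rose by 0.22 ± 0.07 in CIAKI (adjusted p = 0.0397), a call lost when any library but icariin rat 3 was left out (adjusted p up to 0.135). In icariin against CIAKI its difference of -0.30 ± 0.07 SE, adjusted p = 0.011, held with each library left out. Zfp410, known as an activator of the Chd4 gene, was at 42.9, 45.8 and 46.6 CPM in control, 51.8, 50.8 and 48.9 in CIAKI and 42.2, 41 and 41.8 in icariin kidneys. Its CIAKI values were above all others, yet only icariin against CIAKI passed the test (-0.27 ± 0.06 SE, adjusted p = 0.00939, and 0.16 with adjusted p = 0.0712 in CIAKI against control). Zfp148, Zfp384, Zfp292 and Zfp407 missed the threshold in both comparisons, with log2 differences of 0.03, 0.14, -0.05 and 0.04 in CIAKI. Zfp263 fell by 0.27 (adjusted p = 0.0386), which held only when CIAKI rat 1 or icariin rat 3 was left out and not without any other single library (adjusted p up to 0.112).

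Among corepressors, Zfp217 rose and the NET family fell. Zfp217 (ENSRNOG00000021787), which sits in complexes with the demethylase Lsd1 and CoREST, measured 33.6, 28.4 and 29.4 CPM in control, 50.1, 59.0 and 36.9 in CIAKI and 30.3, 31.8 and 28.2 in icariin kidneys. The CIAKI rats differed among themselves, with rat 3 the lowest, but all exceeded the other groups (0.64 ± 0.15 SE, adjusted p = 0.00954, and -0.65 ± 0.15 SE, adjusted p = 0.00915 in icariin against CIAKI). Zfp503 (ENSRNOG00000014237) and Zfp703 (ENSRNOG00000014199) are the vertebrate members of the NET family of Groucho-binding repressors. Zfp503 was at 93.1, 78.6 and 90.3 CPM in control, 51.0, 47.6 and 51.1 in CIAKI and 90.1, 77.5 and 73.1 in icariin kidneys. Zfp703 was at 30.8, 25.2 and 30.4 CPM in control, 17.4, 13.3 and 17.8 in CIAKI and 32.0, 33.6 and 22.7 in icariin kidneys. In both genes each CIAKI value lay below each control and icariin value. Log2 fold changes in CIAKI were -0.79 ± 0.10 SE, adjusted p = 0.000343, for Zfp503 and -0.80 ± 0.17 SE, adjusted p = 0.00509, for Zfp703, and in icariin against CIAKI 0.67 ± 0.10 SE, adjusted p = 0.000875, and 0.81 ± 0.17 SE, adjusted p = 0.00494.

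Zfp827, which recruits the NuRD complex to telomeres, fell by 0.33 ± 0.09 (adjusted p = 0.0142) and was higher in icariin than in CIAKI kidneys by 0.33 (adjusted p = 0.0147, and 0.0588 without icariin rat 2). Zfp592 and Zfp687, partners in the Z3 complex, differed by 0.23 and 0.02 in CIAKI (adjusted p = 0.0533 and 0.879). Zfp592 was called lower in icariin against CIAKI (-0.24, adjusted p = 0.0478), which held only when control rat 2 or CIAKI rat 1 was left out and not without any other single library (adjusted p up to 0.132). The paralogs Zfp608 and Zfp609 differed by -0.37 and 0.23 in CIAKI, and neither passed the test (adjusted p = 0.0662 and 0.0639). Zfp644, a partner of the G9a and GLP methyltransferases, and Zfp516, a cofactor in brown fat, missed the threshold as well (0.09 and -0.11).

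**Figure D3:**
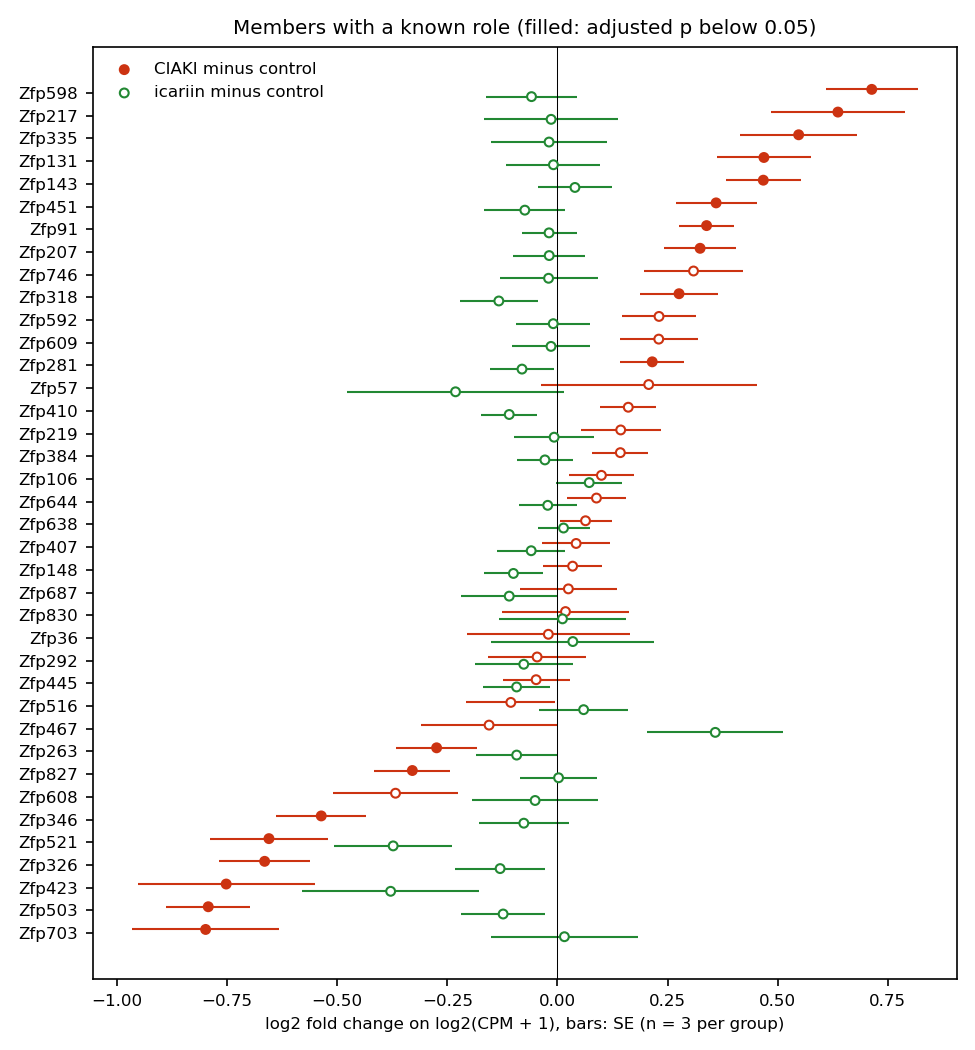
Log2 fold change on log2(CPM + 1) (horizontal axis) with its standard error as bars for the 38 tested genes of the class with a stated role (vertical axis), in CIAKI against control and in icariin against control, 3 rats a group, filled where the adjusted p is below 0.05. In CIAKI 10 are filled to the right and 8 to the left, and in icariin against control none is filled. The 2 series share the 3 control libraries.

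The paralogs Zfp423 and Zfp521 fell in CIAKI and were, of the 38 tested genes with a stated role, those whose icariin values lay furthest below control. Zfp423 (ENSRNOG00000014658), a partner of SMAD and EBF factors in which variants cause a kidney and brain ciliopathy, measured 5.12, 4.25 and 3.57 CPM in control, 2.28, 2.20 and 1.93 in CIAKI and 2.96, 4.27 and 2.20 in icariin kidneys. CIAKI lay below control, while icariin overlapped both groups (-0.75 ± 0.20 SE, adjusted p = 0.0151 in CIAKI, and 0.37 ± 0.20 SE, adjusted p = 0.168 in icariin against CIAKI). The CIAKI call was lost without control rat 1 (adjusted p = 0.0579). Zfp521 (ENSRNOG00000016874) was at 6.37, 6.73 and 8.14 CPM in control, 4.41, 4.25 and 3.70 in CIAKI and 5.09, 5.02 and 5.54 in icariin kidneys, with the 3 groups apart from each other. Its log2 fold change was -0.65 ± 0.13 SE, adjusted p = 0.00454 in CIAKI, and 0.28 ± 0.13 SE, adjusted p = 0.124 in icariin against CIAKI. The 3 mesenchymal markers Col1a1, Pdgfrb and Acta2 summed to 211.5 to 366.3 CPM in control, 117.3 to 138.4 in CIAKI and 123.9 to 211.3 in icariin kidneys, and none was at 0. Col1a1 carried the difference, at 111 to 228 CPM in control and 24.1 to 40.8 in CIAKI, while Pdgfrb and Acta2 overlapped between these groups. Their part in the fall of Zfp423 and Zfp521 was not tested.

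Zfp318, needed in B cells for the IgD transcript, rose by 0.28 ± 0.09 in CIAKI (adjusted p = 0.0338), a call lost without CIAKI rat 1 or any control rat (adjusted p = 0.0556 to 0.116). It was lower in icariin than in CIAKI kidneys (-0.41 ± 0.09 SE, adjusted p = 0.00649). The 5 T and B cell markers found summed to 4.70 to 5.38 CPM in control, 0.669 to 0.974 in CIAKI and 2.27 to 3.47 in icariin kidneys. The B cell marker Ms4a1 was near 0 in every group, as it was at 0 in 6 of the 9 libraries and at most 0.132 CPM in the others. The part of these cells in the values of Zfp318 was not tested. Zfp335, a subunit of histone methyltransferase complexes, rose from 26.8, 26.8 and 31.8 CPM to 40.6, 49.3 and 36.8 in CIAKI and was at 31.1, 28.9 and 24.3 in icariin kidneys, with CIAKI above both groups (0.55 ± 0.13 SE, adjusted p = 0.0099, and -0.57 ± 0.13 SE, adjusted p = 0.009 in icariin against CIAKI). Zfp131, which pairs its zinc fingers with a BTB domain, was at 25.2, 28.7 and 26.6 CPM in control, 41.6, 39.7 and 31.8 in CIAKI and 25.9, 26.8 and 27.2 in icariin kidneys. CIAKI was again the highest group without overlap (0.47 ± 0.11 SE, adjusted p = 0.00738, and -0.48 ± 0.11 SE, adjusted p = 0.00724 in icariin against CIAKI). Zfp668, linked to DNA repair, was at 2.70, 2.87 and 3.70 CPM in control, 5.81, 6.02 and 4.78 in CIAKI and 4.41, 3.27 and 2.73 in icariin kidneys, and its rise (0.68 ± 0.18 SE, adjusted p = 0.0142) missed the threshold without control rat 1 (adjusted p = 0.0526). Its difference between icariin and CIAKI (-0.56, adjusted p = 0.0337) was lost without CIAKI rat 1, CIAKI rat 2, icariin rat 2 or icariin rat 3 (adjusted p up to 0.104).

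Across the 38 tested genes with a stated role, 10 rose, 8 fell and 20 were not called in CIAKI against control. Thus 47.4% were called, beside 28.2% of the Zfp class and 41.3% of all features. Between icariin and CIAKI kidneys 6 were higher with icariin, 13 lower and 19 not called (50% called, beside 27.2% and 39.4%). Level was not matched in these shares, and the genes differ widely in level, with Zfp57 at a mean of 2.51 CPM and Zfp106 at 372. Of Zfp genes under 5 CPM, 15.9% and 11.4% were called in the 2 comparisons, and of those at 50 CPM or more, 47.8% and 43.5%. Zfp57 and Zfp445, KRAB proteins that protect imprinted methylation, were among the genes with a stated role that were not called. Zfp57 measured 2.16, 3.14 and 2.11 CPM in control, 3.25, 4.34 and 1.77 in CIAKI and 1.55, 2.26 and 2.04 in icariin kidneys. For Zfp445 the values were 51.2, 58.6 and 57.0 CPM in control, 55.3, 49.8 and 56.0 in CIAKI and 52.0, 53.3 and 50.7 in icariin kidneys. The groups overlapped in both genes. Zfp106, an RNA-binding protein needed by motor neurons, had the highest mean CPM of the class and also did not pass the test (352, 371 and 348 CPM in control, 359, 378 and 411 in CIAKI and 359, 398 and 369 in icariin kidneys). Zfp638, an adipocyte and retrovirus-silencing factor, differed by 0.06 ± 0.06 in CIAKI, and Zfp219 and Zfp830 by 0.14 and 0.02, none of them called.

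The partners of KRAB proteins were read from a list of 33 genes, of which 30 were tested. In CIAKI 11 rose (36.7%, against 20.8% of all features) and 3 fell (10%, against 20.5%), with a median log2 fold change of 0.05, beside 0.00 over all features. With icariin, 2 were higher than in CIAKI kidneys (6.67%, against 19.2%) and 10 lower (33.3%, against 20.2%), with a median of -0.12, beside 0.02. The list's median level was 56.8 CPM, and the share called rose with level. Of 4170 features at 50 CPM or more, 1385 rose and 916 fell in CIAKI. With icariin, 946 of these features were higher and 1340 lower than in CIAKI kidneys. The list as a whole was not tested. Rbbp7, a histone chaperone subunit of NuRD and other complexes, was at 158, 157 and 146 CPM in control, 367, 310.1 and 302 in CIAKI and 146, 150.5 and 145 in icariin kidneys. CIAKI values lay above all others (1.07 ± 0.08 SE, adjusted p = 4.68e-05, and -1.14 ± 0.08 SE, adjusted p = 4.38e-05 in icariin against CIAKI). Morc2, an ATPase that acts with the HUSH silencing complex, rose by 0.35 ± 0.06 (adjusted p = 0.00233). Trim28 itself, the corepressor that KRAB domains bind, was at 134, 126 and 135 CPM in control, 177, 171 and 151 in CIAKI and 122, 116 and 103 in icariin kidneys. It rose in CIAKI (0.33 ± 0.09 SE, adjusted p = 0.0129) and was lower in icariin than in CIAKI kidneys (-0.54 ± 0.09 SE, adjusted p = 0.00143). Its icariin values also lay below the controls, but this difference did not pass the test (-0.21 ± 0.09 SE, adjusted p = 0.424). Of all features, 10.2% had icariin values that all lay below the controls, and 0 of the 30 list genes were called in icariin against control.

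Zfp93 and Zfp950 had the largest falls of the class in CIAKI on the log2(CPM + 1) scale. Zfp93 (ENSRNOG00000042101) measured 10.6, 8.07 and 8.72 CPM in control, 1.83, 2.42 and 5.09 in CIAKI and 10.6, 12.3 and 10.5 in icariin kidneys. Each CIAKI value lay below each other value, with CIAKI rat 3 nearest to the controls, and the icariin values overlapped the controls. The log2 fold change was -1.37 ± 0.26 SE, adjusted p = 0.00293 in CIAKI, and 1.63 ± 0.26 SE, adjusted p = 0.00144 in icariin against CIAKI. Zfp950 (ENSRNOG00000032668) measured 6.14, 6.39 and 5.85 CPM in control, 2.03, 5.07 and 0.171 in CIAKI and 6.16, 5.21 and 5.14 in icariin kidneys. Its CIAKI values spread from near 0 to just below the controls, and the call in CIAKI (-1.36 ± 0.47 SE, adjusted p = 0.045) was lost when any library but CIAKI rat 2 was left out (adjusted p = 0.0597 to 0.102). Without CIAKI rat 3 the log2 fold change was -0.73, and edgeR and DESeq2 gave adjusted p = 0.221 and 0.138.

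Zfp639 (ENSRNOG00000043053) was the gene with the second largest rise, at 11.3, 10.2 and 10.8 CPM in control, 19.7, 20.6 and 17.4 in CIAKI and 10.4, 10.6 and 12.3 in icariin kidneys. CIAKI stood above both groups, which overlapped (0.78 ± 0.11 SE, adjusted p = 0.000717, and -0.74 ± 0.11 SE, adjusted p = 0.00104 in icariin against CIAKI). Zfp275 and Zfp560 rose by 0.60 and 0.59 (adjusted p = 0.00483 and 0.00411) and were lower in icariin against CIAKI, with differences of -0.48 and -0.63 (adjusted p = 0.0143 and 0.00327). Of the row ENSRNOG00000046652 of Zfp84, CIAKI rat 2 held the highest value (10.2, 12.8 and 11.6 CPM in control, 16.8, 25.3 and 15.0 in CIAKI and 11.4, 10.6 and 10.6 in icariin kidneys), and its rise of 0.65 ± 0.18 SE, adjusted p = 0.0169, missed the threshold without control rat 1 (adjusted p = 0.0614). It was lower in icariin than in CIAKI kidneys (-0.72, adjusted p = 0.0115).

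Zfp706 (ENSRNOG00000060956), with the second highest mean CPM of the class, fell from 238, 256 and 221 CPM in control to 162, 168 and 180.1 in CIAKI and was at 232, 269 and 258 in icariin kidneys. No CIAKI value reached any other value (-0.48 ± 0.08 SE, adjusted p = 0.00187, and 0.57 ± 0.08 SE, adjusted p = 0.000973 in icariin against CIAKI). Zfp362, Zfp580 and Zfp865 fell as well, by 0.74, 0.76 and 0.68 on the log2 scale (adjusted p = 0.00123, 0.00461 and 0.00976). With icariin they were higher than in CIAKI by 0.64, 0.67 and 0.83 (adjusted p = 0.00275, 0.00904 and 0.00395). Zfp362 was at 10.2, 9.05 and 10.7 CPM in control, 5.87, 4.99 and 5.82 in CIAKI and 9.36, 9.19 and 9.10 in icariin kidneys. In all 3 genes the CIAKI values lay below those of both other groups. Of the called genes outside the naming rule, 10 rose by 0.28 to 0.50 and 17 fell by 0.26 to 0.73 in CIAKI, and 12 were higher by 0.23 to 0.56 and 12 lower, with differences of -0.71 to -0.22, in icariin against CIAKI.

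**Figure D4:**
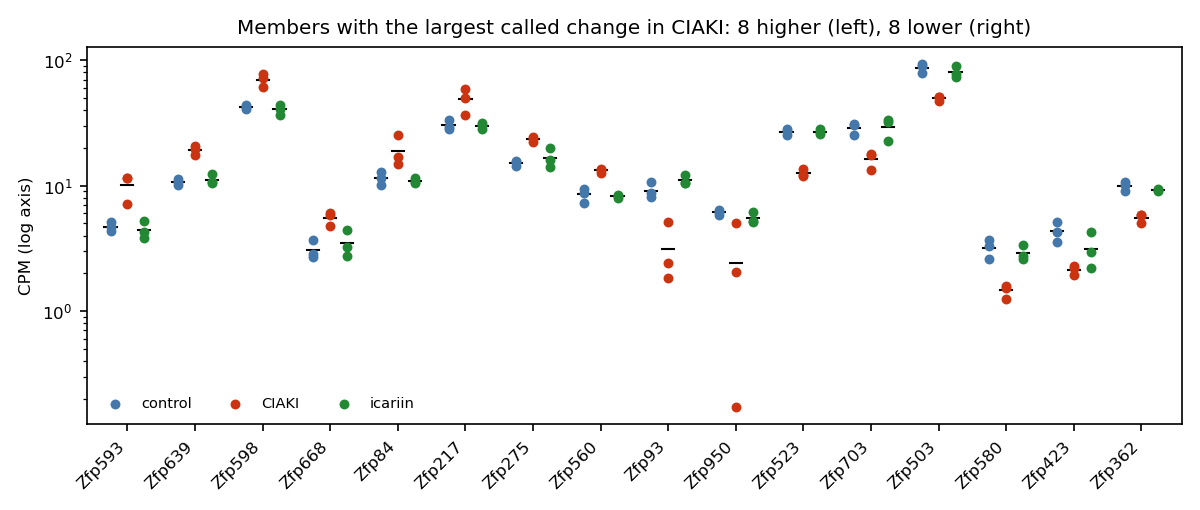
CPM on a log axis in each of the 9 kidneys for the 8 Zfp genes with the largest called rise and the 8 with the largest called fall in CIAKI (horizontal axis), with points for rats and a short bar for each group's mean, 3 rats a group. CIAKI points stand above the control points in the 8 genes at the left and below them in the 8 at the right, and 1 CIAKI point of Zfp950 lies at 0.171 CPM.

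CPM does not allow for transcript length, so levels of different genes were compared per length, in FPKM (reads scaled by transcript length and library size), for the 16 Zfp genes in the authors' deposited table of mRNAs, which covers CIAKI and icariin kidneys. The authors chose the genes of that table, so being in it is no result. In the authors' deposited table Zfp706 had the highest level of the 16, at 53.0 to 61.2 FPKM in CIAKI and 79.1 to 91.0 FPKM in icariin kidneys. In CIAKI kidneys Zfp598 (14.5 to 17.7 FPKM) came next in the authors' deposited table and did not overlap Zfp503 (11.9 to 12.8 FPKM), while Zfp503 overlapped Zfp217 (8.36 to 13.3 FPKM) and Zfp771 (8.29 to 13.1 FPKM). Zfp639 (9.32 to 11.0 FPKM) overlapped both of the latter in the authors' deposited table. Zfp523, Zfp703 and Zfp593 overlapped each other there at 3.58 to 4.22 FPKM, 3.23 to 4.33 FPKM and 2.75 to 4.42 FPKM. Zfp473 was the lowest in the authors' deposited table, at 0.333 to 0.637 FPKM. In icariin kidneys the order in the authors' deposited table began with Zfp706, Zfp503 (18.8 to 22.8 FPKM) and Zfp598 (8.88 to 10.5 FPKM), which did not overlap.

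Other zinc finger naming classes were counted in the same fit. Of 33 tested Zbtb genes, which carry a BTB domain, 6 rose and 1 fell in CIAKI (21.2%), and in icariin against CIAKI 2 were higher and 4 lower (18.2%). Of 14 Zscan or Zkscan genes, which carry a SCAN domain, 0 rose and 4 fell (28.6%), and 4 were higher and 0 lower with icariin (28.6%). Of 18 genes whose symbol has letters after the Zfp number, 1 rose and 4 fell (27.8%), and 3 were higher and 1 lower (22.2%). Of 3 Znf genes, 0 rose and 1 fell (33.3%), and 2 were higher and 0 lower (66.7%). In CIAKI these shares stand beside 28.2% of the Zfp genes and 41.3% of all features (20.8% risen and 20.5% fallen). In icariin against CIAKI they stand beside 27.2% and 39.4% (19.2% of all features higher and 20.2% lower). Differences between the classes were not tested.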

How the data were processed

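RNA of 9 rat kidneys was sequenced from Illumina TruSeq libraries, per the labels. Bowtie 0.12.2 and the build mm8 are named per the submitters' processing notes. That is a mouse build while the identifiers are rat genes, so the reference is not settled. The authors deposited the gene table in CPM, in which each value was a whole multiple of its library's smallest step. All values (100%, within 0.1) thus gave whole reads, and these matched 23850 of 23850 counts in the authors' deposited mRNA table. FPKM was taken from that table, as named per the file headers. How reads that match several similar Zfp genes were counted is not given in the sources used.

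Features at 1 CPM or more in 3 or more libraries were fitted in limma 3.58.1 (R 4.3.3) with an intensity trend on log2(CPM + 1), with group as factor over all 9 libraries. Fold changes are on this scale, which understates changes of low genes. Two-sided p-values were adjusted by Benjamini-Hochberg over 16731 features, with calls below 0.05. The code was tested on simulated data in which 200 of 16731 genes were changed. It called 25.4% of those changed 1.5-fold, 41.8% at 2-fold and 80.3% at 4-fold, and 4.85% of all calls were false. Fewer genes were changed there than were called here, so these shares do not carry over directly. Alternatives were edgeR 4.0.16 and DESeq2 1.42.0 on recovered reads, other pseudocounts, filters, scalings and fits, and each rat left out.

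The Zfp genes, the gene lists and the naming rule were chosen with earlier results of these data known. The rule names the 8 largest called changes each way in the first 2 comparisons (with groups apart), 40 genes of known role (Zfp568 and Zfp622 had no row and are not analysed here), the 3 highest in CPM, the 2 smallest p of each partner list, and the genes nearest to the filter. Others are named where a count calls for it. Rats are separate animals, per the series design.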

Additional observations from a re-analysis of the deposited data

How the results depend on the processing

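With upper-quartile scaling 49 Zfp genes were called lower in CIAKI against control, and the median log2 fold change was -0.093 in that comparison and 0.077 in icariin against CIAKI. With quantile normalization the median in CIAKI against control was 0.018. DESeq2 called 1 lower gene in icariin against control. The cause of these shifts was not tested. Leaving out 1 rat at a time, which leaves fewer samples, gave 17 to 26 higher and 20 to 32 lower genes in CIAKI against control, 15 to 29 higher and 22 to 30 lower in icariin against CIAKI, and 0 in icariin against control. The medians then ran from -0.06 to -0.01, from -0.01 to 0.07 and from -0.06 to 0.01. A group with 1 rat left out is assumed to vary like the others. With the replicate number as a block, 24 genes were higher and 26 lower in CIAKI, 21 and 25 in icariin against CIAKI, and 0 in icariin against control. The labels do not say that the numbers pair rats, so they were not taken as pairs. Deviations of rats sharing a number correlated by -0.03 to 0.08, and those of rats with different numbers by -0.10 to 0.04. Of the 58 genes called in CIAKI, 38 to 58 kept their call and direction across the alternatives, and of the 56 called in icariin against CIAKI, 37 to 56 did. No named gene reversed. Among the called Zfp genes named for a large change, a known role or a high CPM, 23 of 31 in CIAKI and 26 of 32 in icariin against CIAKI kept the call whichever single rat was left out. Genes named for other reasons are outside these counts. Of those, Zfp180 and Zfp646 kept the CIAKI call. Zfp462, ENSRNOG00000006726 of Zfp9 and ENSRNOG00000030410 of Zfp958 lost it without at least 1 rat. In icariin against CIAKI Zfp646 and ENSRNOG00000000891 of Zfp958 lost theirs in the same way. The scalings moved the median of all features by -0.063 to 0.057. The median standard error of a log2 difference ran from 0.17 for Zfp genes under 5 CPM to 0.08 at 50 CPM or more, so depth and level limit what 3 rats a group can show.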

Other observations

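By RefSeq's GRCr8 order of protein-coding genes, in which 199 tested rows were matched by symbol, 26 pairs of Zfp genes stood next to each other. Both genes of a pair were called in CIAKI against control in 2 pairs, Zfp668 with Zfp646 (both higher) and Zfp580 with Zfp865 (both lower), and without control rat 1 Zfp668 was not called (adjusted p = 0.0526). Of the other pairs, 9 had 1 called gene and 15 had none, beside 28.2% of all tested Zfp genes called, and whether neighbours were called together more or less often than other genes was not tested. Zfp93, with the largest fall, stood next to Zfp64, which had a log2 fold change of 0.49 (adjusted p = 0.0993). These pairs are named after their values were seen. Adjacent genes can share reads or transcripts, and this was not tested.

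Of 4 symbols with 2 tested rows each, the rows differed in their calls in CIAKI against control for 2, Zfp84 and Zfp9. The row ENSRNOG00000029043 of Zfp84 had a log2 fold change of 0.04 in CIAKI (adjusted p = 0.735) beside 0.65 in ENSRNOG00000046652. Of Zfp9, ENSRNOG00000006726 differed by -0.51 (adjusted p = 0.0355, a call lost without CIAKI rat 1, CIAKI rat 2 or any control rat, and with adjusted p = 0.268 after quantile normalization). It reached 1 CPM in the 3 controls and 1 icariin library and in no CIAKI library, so it passed the filter mainly through the group where it was high, and nothing is read from its call. The row ENSRNOG00000037251 differed by -0.32 (adjusted p = 0.169). Both rows of Zfp958 fell (by 0.73 and 0.46, the latter with adjusted p = 0.0635 without control rat 3). In icariin against CIAKI ENSRNOG00000000891 of Zfp958 was called higher (adjusted p = 0.0362) and ENSRNOG00000030410 was not (adjusted p = 0.21), and the Zfp84 rows differed as well. The call of ENSRNOG00000000891 held on dropping CIAKI rat 3. It failed on dropping any other single rat (adjusted p = 0.105 without icariin rat 2). In neither of these comparisons did a row of Zfp260 pass the test. Values of rows that share a symbol are uncertain where reads match both.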
